A study of Mus musculus with 6 samples.

Results

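The 8 genes H2-Aa, H2-Ab1, H2-Eb1, Cd74, Ciita, H2-DMa, H2-DMb1 and H2-DMb2 make, load or switch on major histocompatibility complex (MHC) class II molecules. They were taken by gene symbol from the UMI tables of 6 lung tumors, and they are 8 of the 31130 genes in these tables. All 8 passed the filter on low counts. Their level was compared between 3 tumors that grew in lungs with interstitial pneumonia (IP + LC) and 3 that grew in lungs without it (LC).

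MHC class II molecules are pairs of an alpha and a beta chain that show peptides from endosomes to CD4 T cells. Dendritic cells, B cells and macrophages carry them, and interferon-gamma induces them in many other cells. CIITA, the product of Ciita, is the coactivator that switches the genes on together. It binds no DNA itself and is held at their promoters by RFX, CREB-type factors and NF-Y, which sit on the X and Y boxes. In C57BL/6 mice, H2-Aa and H2-Ab1 encode the alpha and beta chains of I-A, while H2-Eb1 encodes a beta chain whose alpha partner H2-Ea is not made in this haplotype. Cd74, the invariant chain, fills the groove of new class II molecules and guides them to endosomes. H2-DM, a pair of H2-DMa with H2-DMb1 or H2-DMb2, then exchanges the remnant of Cd74 for peptide, and H2-O, the product of H2-Oa and H2-Ob, holds H2-DM back.

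The mice were wild-type female C57BL/6 animals aged 6 to 8 weeks, and in both groups Lewis lung carcinoma (LLC) cells, an established C57BL/6 line that here carried a green fluorescent protein, had been placed in the left lung on day 14. The IP + LC mice had been given bleomycin at 2 mg/kg into the airways on day 0, and the LC mice had been given saline. Tumor tissue of both groups was collected on day 21. The libraries were made from whole tissue with a primer at the 3′ end of the transcripts, and each UMI stands for 1 sampled molecule. The sources do not say that the numbered tumors came from separate mice, so the p-values measure the spread between these tissue samples.

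The tables held 592733 UMIs in LC replicate 1 and 1336919 to 1631066 UMIs in the other 5 tumors. Although the labels give lung cancer cells as the cell type, genes of normal lung were abundant. The summed level of 10 type 2 alveolar cell markers was 36700 to 46040 CPM (UMI counts after scaling for library size) in the LC tumors, against 6711 to 12090 CPM in those with IP. LC replicate 1 stood apart from the other LC tumors. Its summed macrophage markers were 2535 CPM against 918 and 674 CPM, and its summed proliferation markers were 787 CPM against 145 and 144 CPM, while the IP + LC tumors ranged from 2528 to 3206 CPM and from 1141 to 1333 CPM. The fold change of each of the 8 genes and each ratio between them is therefore given with and without this tumor. In such tissue, fewer cells of a type and less RNA per cell cannot be told apart.

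6 of the 8 genes lie together on chromosome 17, and the promoters of the class II genes are best known for the shared X and Y boxes. The RefSeq table of promoter windows (GRCm38.p6, 250 bases before to 50 bases after each start) held H2-Aa, H2-Eb1, H2-DMa, H2-DMb1 and H2-DMb2, but not H2-Ab1, Cd74 or Ciita. The stretches from X to Y box are shown for H2-Aa, H2-Eb1 and H2-DMb2, the members in which both boxes were found before the start and outside annotated exons, and for H2-Eb2, a class II beta chain gene outside the 8, so that the shared layout can be seen. Capitals mark the X1 core (AC and GATG with any base between them), or in H2-Aa the X2 sequence TGACGTCA, and then the Y box, CTGATTGG or its core ATTGG.

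H2-Aa, chr17:34287857-34287912, minus strand: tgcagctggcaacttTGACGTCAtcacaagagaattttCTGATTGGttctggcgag

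H2-Eb1, chr17:34305764-34305822, plus strand: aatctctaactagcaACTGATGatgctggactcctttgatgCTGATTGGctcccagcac

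H2-DMb2, chr17:34145114-34145173, plus strand: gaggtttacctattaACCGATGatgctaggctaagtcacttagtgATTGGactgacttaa

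H2-Eb2, chr17:34325531-34325589, plus strand: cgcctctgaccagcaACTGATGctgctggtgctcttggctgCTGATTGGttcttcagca

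The stretch of H2-Aa lay at positions -89 to -34 from the RefSeq start, that of H2-Eb1 at -103 to -45 and that of H2-DMb2 at -135 to -76, which is within its longer GENCODE gene model but in no exon. Counted to the first base of ATTGG, the gap after the X1 core was 22 bases in H2-Eb1 and H2-Eb2 and 23 bases in H2-DMb2, and the gap after the X2 sequence was 18 bases in H2-Aa. All motifs were searched on both strands, and CTGATTGG contains ATTGG. The shorter core was found in the windows of 5 of 5 members and in 37.41% of all 32851 windows. The X1 core was found in 4 of 5 members, in H2-Aa on the other strand only, and in 9.85% of all windows. CTGATTGG was found in H2-Aa and H2-Eb1 and in 4.1% of all windows, and TGACGTCA in H2-Aa and in 1.79% of all windows. The other X2 sequence TGCGTCA was in no member window and in 2.12% of all. The gamma-activated site TTCNNNGAA was found in H2-DMb2 alone and in 8.3% of all windows, and the interferon-stimulated response element in no member window and in 3.44% of all. These matches describe letters in the windows only.

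Of the 8 genes, 4 rose in the IP + LC tumors, 4 did not pass the test and none fell. Ciita, H2-DMa, H2-DMb1 and H2-Ab1 were higher, with no overlap between the groups. H2-Aa, H2-Eb1 and Cd74 had higher means in the IP + LC group but overlapped with the LC group, and H2-DMb2 had a lower mean and overlapped as well. A gene was called at an adjusted p below 0.1 in edgeR's quasi-likelihood test, the limit named by the study. By this rule 16.8% of the 11240 tested genes were higher and 19.6% were lower, so that change was common in these tumors. Without overlap between the groups, 21.6% of all tested genes were higher and 21.5% were lower. The median log2 fold change was 0.73 over the 8 genes and 0.02 over all tested genes. Scaling by library size alone moved the median of all genes to 0.18 and the share of higher among called genes from 46.1% to 58.3%, and Cd74 was then also called (log2 fold change 0.74, adjusted p = 0.0911, range over its 16 alternatives 0.0105 to 0.411).

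**Figure D1:**
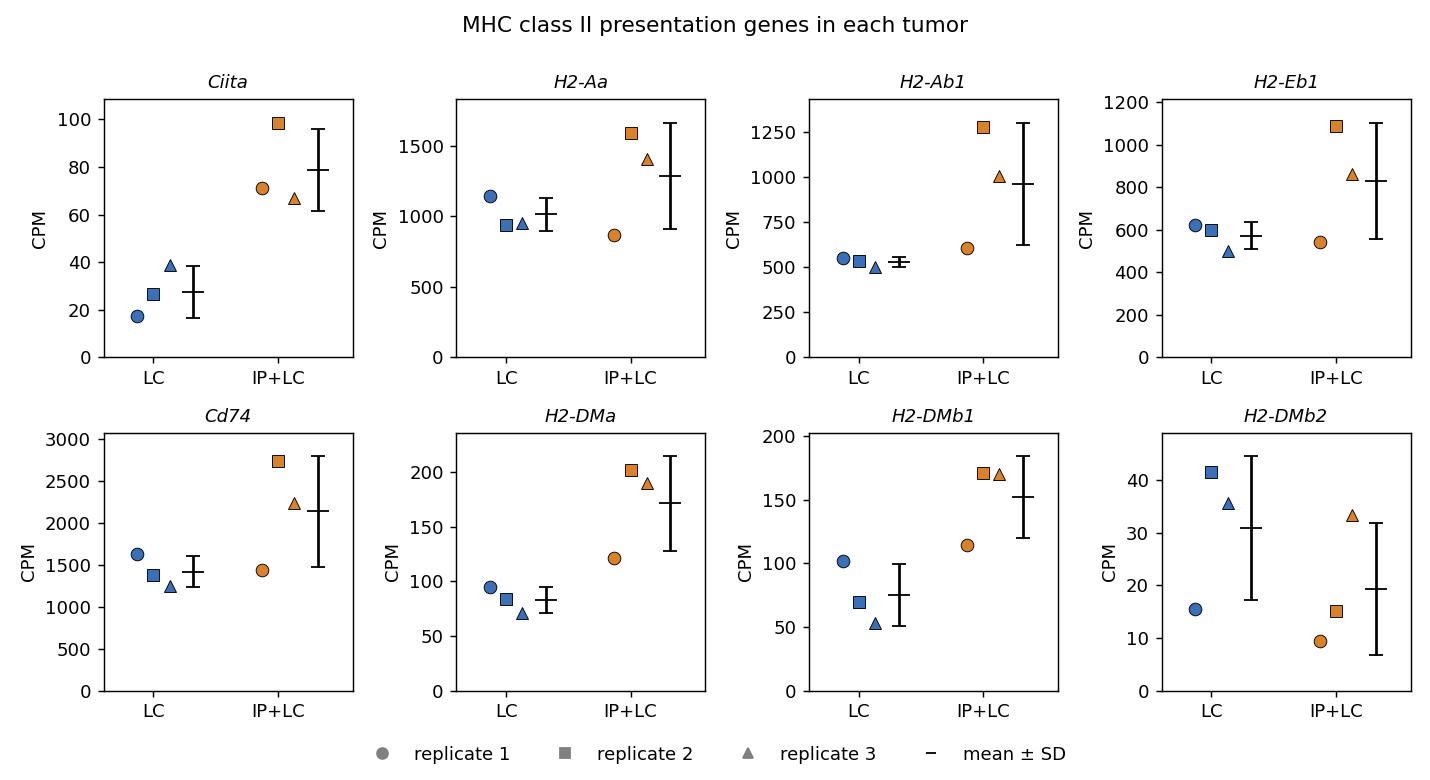
Level of the 8 MHC class II presentation genes in each tumor, in CPM after TMM scaling on linear axes that start at 0, with 3 LC tumors in blue, 3 IP + LC tumors in orange, a marker shape per replicate number and the mean ± SD of each group in black. The groups do not overlap for Ciita, H2-Ab1, H2-DMa and H2-DMb1, and IP + LC replicate 2 is the highest tumor for every gene but H2-DMb2.

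Without LC replicate 1, 7 of the 8 genes were called higher and H2-DMb2 was called lower. In that comparison 28.3% of all 11748 tested genes were higher and 28.7% were lower, so the larger number of calls was shared by the genes as a whole. Among the genes called with all 6 tumors, the log2 fold change was then 1.29 for Ciita, 0.91 for H2-Ab1, 1.16 for H2-DMa and 1.31 for H2-DMb1. Without IP + LC replicate 2, only Ciita and H2-DMa were called. Ciita and H2-DMa passed the limit in all 16 alternative settings, leaving out each tumor included.

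Ciita, the master coactivator, had the highest fold change of the 8 genes over the 6 tumors, although without LC replicate 1 that of H2-DMb1 was slightly higher. Its level was 17.2, 26.6 and 39.0 CPM in the LC tumors and 71.1, 98.6 and 66.8 CPM in the IP + LC tumors, from 10, 34 and 46 UMIs and from 98, 169 and 92 UMIs. Every IP + LC tumor was above every LC tumor. The mean rose from 27.6 ± 10.9 CPM to 78.8 ± 17.3 CPM (SD, n = 3 each), which is 2.75-fold with a 95% interval of 1.73 to 4.38 (log2 fold change 1.46, SE 0.30, adjusted p = 0.00818). Leaving out 1 tumor at a time gave log2 fold changes of 1.29 to 1.77. Ciita lies at chr16:10480059-10528418 on the plus strand of GRCm38. Dendritic cells, B cells and cells under interferon-gamma start its transcript from different promoters, and counts at the 3′ end do not separate them. On the other strand Dexi overlaps 3.45% of its exonic bases, and the sources do not say whether the counting used strand.

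Of the chains of I-A, H2-Ab1 was called and H2-Aa was not. H2-Ab1, the beta chain, was measured at 551, 537 and 501 CPM in the LC tumors and at 606, 1279 and 1010.0 CPM in the IP + LC tumors. The LC tumors lay within a narrow range and the IP + LC tumors were spread, with replicate 1 just above the LC group. Its mean rose from 529.5 ± 25.9 to 965 ± 339 CPM, which is 1.82-fold with an interval of 1.18 to 2.82 (log2 fold change 0.87, SE 0.28, adjusted p = 0.0465). This call was lost without LC replicate 2 (0.875 on the log2 scale, adjusted p = 0.133), LC replicate 3 (0.82, adjusted p = 0.127), IP + LC replicate 2 (0.63, adjusted p = 0.185) or IP + LC replicate 3 (0.86, adjusted p = 0.124). Over 16 alternatives its adjusted p ranged from 0.00392 to 0.185.

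H2-Aa, the alpha chain, was measured at 1145, 938 and 953 CPM in the LC tumors and at 865, 1588 and 1406 CPM in the IP + LC tumors. IP + LC replicate 1 was the lowest of the 6 tumors and the other IP + LC tumors were the highest. The means were 1012 ± 115 and 1286 ± 376 CPM, a ratio of 1.27 with an interval of 0.844 to 1.92 (log2 fold change 0.35, SE 0.26, adjusted p = 0.358). Without LC replicate 1 it passed the limit (0.46, adjusted p = 0.0673, range over 16 alternatives 0.0673 to 0.707).

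H2-Eb1, the beta chain without its alpha partner in this strain, was measured at 622, 598 and 499.98 CPM in the LC tumors and at 542, 1087 and 862 CPM in the IP + LC tumors. IP + LC replicate 1 lay within the LC range. The means were 573 ± 64.5 and 831 ± 274 CPM, a ratio of 1.45 with an interval of 0.947 to 2.22 (log2 fold change 0.54, SE 0.27, adjusted p = 0.175). H2-Eb1 was called when LC replicate 1 was left out (0.61, adjusted p = 0.0306) and when IP + LC replicate 1 was (0.79, adjusted p = 0.0812), and its adjusted p ranged from 0.0306 to 0.5 over 16 alternatives. H2-Ea itself had 1 UMI in LC replicate 3 and was listed at 0 in the other 5 tumors, and H2-Eb2 had 4, 8 and 3 UMIs in the LC tumors and 1, 7 and 5 UMIs in the IP + LC tumors, so neither could be tested.

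Cd74, the invariant chain, gave the most UMIs of the 8 genes in every tumor. It was measured at 1627, 1386 and 1253 CPM in the LC tumors and at 1436, 2743 and 2242 CPM in the IP + LC tumors. IP + LC replicate 1 lay within the LC range, as for H2-Eb1. The means were 1422 ± 189.6 and 2140.2 ± 659 CPM, a ratio of 1.51 with an interval of 0.978 to 2.32 (log2 fold change 0.59, SE 0.28, adjusted p = 0.145). It passed the limit on leaving out LC replicate 1 (0.71, adjusted p = 0.0105) and on leaving out IP + LC replicate 1 (0.83, adjusted p = 0.0817), and its adjusted p ranged from 0.0105 to 0.411 over 16 alternatives. H2-Ab1 lies at chr17:34257689-34269419, H2-Aa at chr17:34282744-34287823, H2-Eb1 at chr17:34305867-34316674 and Cd74 at chr18:60803848-60812652.

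Over the 8 genes the IP + LC tumors kept nearly 1 order. Replicate 2 was the highest IP + LC tumor for every gene but H2-DMb2, and replicate 1 was the lowest for every gene but Ciita. The 8 genes together took 2424, 4697 and 4020 UMIs in the LC tumors, or 0.409%, 0.34% and 0.296% of all UMIs. In the IP + LC tumors they took 5195, 12308 and 8235 UMIs, or 0.387%, 0.755% and 0.616%. The summed level was 3754 ± 389 CPM for the LC tumors and 5643 ± 1733 CPM for the IP + LC tumors, and IP + LC replicate 1 (3767 CPM) lay within the LC range of 3407 to 4174 CPM.

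**Figure D2:**
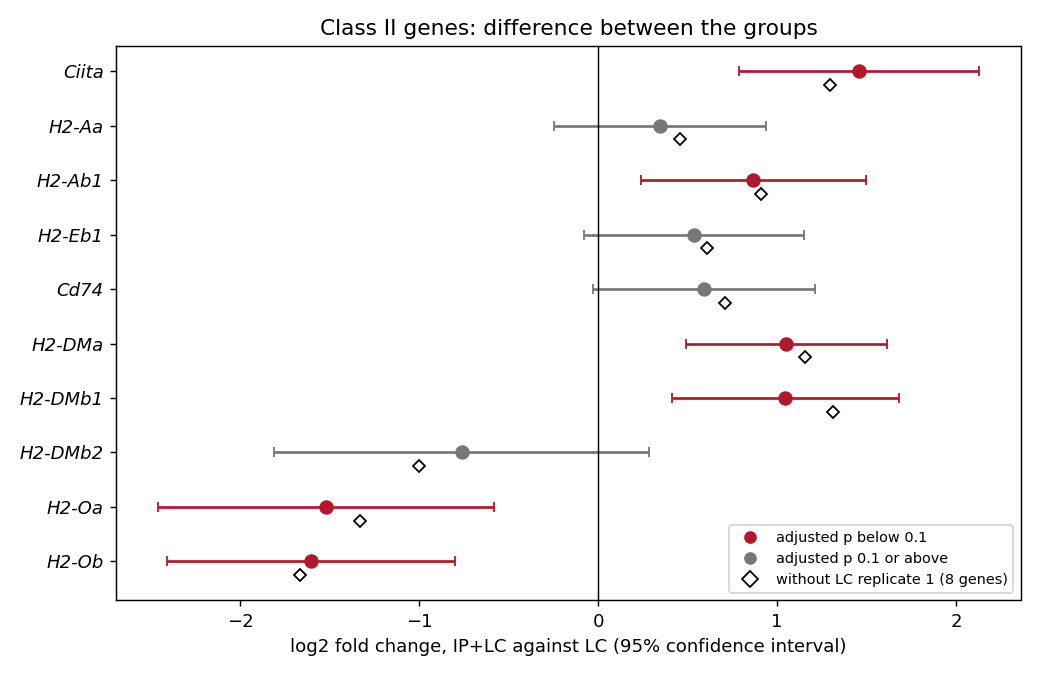
Log2 fold change of the 8 genes and of H2-Oa and H2-Ob, IP + LC against LC, from edgeR, with 95% confidence intervals (red for an adjusted p below 0.1, grey for 0.1 or above); open diamonds give the value without LC replicate 1. Ciita is highest at 1.46, H2-DMa and H2-DMb1 lie at 1.05, and H2-DMb2, H2-Oa and H2-Ob lie below 0.

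Of the genes of the peptide editor H2-DM, H2-DMa and H2-DMb1 rose and H2-DMb2 did not pass the test. H2-DMa, its alpha chain, was measured at 94.7, 83.8 and 71.2 CPM in the LC tumors and at 122, 202 and 190.2 CPM in the IP + LC tumors. The groups did not overlap. The mean rose from 83.2 ± 11.8 to 171 ± 43.3 CPM, which is 2.07-fold with an interval of 1.40 to 3.06 (log2 fold change 1.05, SE 0.25, adjusted p = 0.015).

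H2-DMb1, a beta chain, was measured at 102, 69.7 and 53.4 CPM in the LC tumors and at 115, 171 and 169.9 CPM in the IP + LC tumors. LC replicate 1 and IP + LC replicate 1 were close to each other, and the groups did not overlap. The mean rose from 74.9 ± 24.5 to 152 ± 32.3 CPM (log2 fold change 1.05, SE 0.28, adjusted p = 0.0245). The call was lost without IP + LC replicate 2 (0.97, adjusted p = 0.108, range over 17 alternatives 0.000102 to 0.108).

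H2-DMb2, the other beta chain, was the only one of the 8 genes with a lower mean in the IP + LC group. It was measured at 15.5, 41.5 and 35.6 CPM in the LC tumors and at 9.43, 15.2 and 33.4 CPM in the IP + LC tumors, from 9, 53 and 42 UMIs and from 13, 26 and 46 UMIs. LC replicate 1 and IP + LC replicate 3 lay within the range of the opposite group. The means were 30.9 ± 13.6 and 19.3 ± 12.5 CPM (log2 fold change -0.76, SE 0.46, adjusted p = 0.254). With LC replicate 1 left out it was called lower (-1.002, adjusted p = 0.0284), as it was with IP + LC replicate 3 left out (-1.34, adjusted p = 0.0781), and its adjusted p ranged from 0.0172 to 0.584 over 16 alternatives.

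The split between H2-DMb1 and H2-DMb2 is uncertain, since the genes are near copies. Of the longest H2-DMb1 transcript, 76.92% lay in matches of at least 81 bases and 95% identity to H2-DMb2 transcripts, and of H2-DMb2 81.59% lay in such matches to H2-DMb1 or other genes. No such match was found for the other 6 genes. In the last 500 bases, where the libraries were primed, 14.5% of the stretches of 81 bases (1 read length) of H2-DMb1 occurred exactly in H2-DMb2, and none of H2-DMb2 in H2-DMb1. Counted as 1 gene, H2-DMb1 and H2-DMb2 gave 68, 142 and 105 UMIs in the LC tumors and 171, 319 and 280 UMIs in the IP + LC tumors. The mean was 105.8 ± 14.8 CPM against 171 ± 41.7 CPM, with a log2 fold change of 0.70 (SE 0.24, adjusted p = 0.0609), so the sum of both beta chain genes was higher. H2-DMa lies at chr17:34119541-34139101, where Brd2 overlaps 10.44% of its exonic bases on the other strand, H2-DMb2 at chr17:34143307-34151555 and H2-DMb1 at chr17:34153072-34160230.

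H2-Ob, a chain of the H2-DM inhibitor H2-O, fell. It was measured at 34.4, 47.8 and 33.9 CPM in the LC tumors and at 7.25, 11.1 and 20.3 CPM in the IP + LC tumors (log2 fold change -1.61, SE 0.36, adjusted p = 0.0115). H2-Oa, the other chain, was measured at 15.5, 10.2 and 9.32 CPM in the LC tumors and at 2.18, 4.67 and 4.36 CPM in the IP + LC tumors (log2 fold change -1.52, SE 0.42, adjusted p = 0.0264). The groups did not overlap for either gene. H2-Oa rests on 9, 13 and 11 UMIs against 3, 8 and 6 UMIs and passed the filter on low counts only through the LC tumors, where it was higher, so its p gives no support to a fall, and BC051537 on the other strand overlaps 22.81% of its exonic bases. H2-Ob was called lower in 16 of 16 alternatives.

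H2-O is best known from B cells. Of 12 tested B cell markers, 9 were lower, beside 19.6% of all tested genes, and none was higher. Their median log2 fold change was -1.45, and no marker was at 0 in all tumors. Of the 9, 5 reached the level of the filter on low counts in every LC tumor but not in every IP + LC tumor and give no support, which leaves 4. Of these 4, Bank1 and Ms4a1 overlapped between the groups and were near the limit (adjusted p = 0.0873 and 0.0961). The summed level of the list was 862.7 to 959.7 CPM over the LC tumors and 301.6 to 759.5 CPM over the IP + LC tumors. Cd79b, part of the B cell receptor, fell from 116 ± 11.4 to 31.4 ± 18.9 CPM (adjusted p = 0.00886) and Ighd, its IgD heavy chain, from 96.5 ± 23.9 to 29.6 ± 12.8 CPM (adjusted p = 0.00567). Ighm, the most abundant of the markers, was measured at 410.4 ± 66.7 and 323 ± 146.5 CPM (adjusted p = 0.447). IP + LC replicate 3, the IP + LC tumor with the most H2-DMb2 and H2-Ob, also had the highest summed B cell markers of its group. H2-Oa was instead highest in IP + LC replicate 2. Among the LC tumors, replicate 2 was highest for H2-DMb2, H2-Ob and this sum. LC replicate 1 had less H2-DMb2 than LC replicate 3 (15.5 against 35.6 CPM) at a higher sum (873 against 863 CPM). The part of B cells in the levels of H2-Oa, H2-Ob and H2-DMb2 was not tested. Leaving out LC replicate 2 reduced the number of lower B cell markers to 5.

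Ratios within a tumor do not depend on how libraries are scaled, and 6 ratios between the genes were compared by an exact two-sided permutation test over 3 against 3 tumors, whose smallest possible p is 0.1. No ratio could therefore fall below the limit of 0.1, whatever its size, and the values are given as a description. The ratio of H2-Aa to H2-Ab1 UMIs was 2.08, 1.75 and 1.90 in the LC tumors and 1.43, 1.24 and 1.39 in the IP + LC tumors. The groups did not overlap, and the difference was -0.50 on the log2 scale (exact permutation p = 0.1, adjusted over the 6 ratios p = 0.15). H2-Eb1 to H2-Ab1 was likewise 1.13, 1.11 and 0.998 against 0.895, 0.850 and 0.853, a difference of -0.32 (exact permutation p = 0.1, adjusted p = 0.15). Without LC replicate 1 the differences were -0.43 and -0.285, each with an exact permutation p of 0.1. Cd74 kept close to the I-A chains. Its ratio to H2-Aa plus H2-Ab1 was 0.959, 0.940 and 0.862 in the LC tumors and 0.976, 0.957 and 0.928 in the IP + LC tumors, and the groups overlapped (log2 difference 0.05, exact permutation p = 0.5, adjusted p = 0.5; 0.08 without LC replicate 1, exact permutation p = 0.3).

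The H2-DM genes were set against the I-A chains in the same way. The ratio of the 3 H2-DM genes to H2-Aa plus H2-Ab1 was 0.125, 0.132 and 0.110 in the LC tumors and 0.167, 0.135 and 0.163 in the IP + LC tumors, a log2 difference of 0.34 without overlap (exact permutation p = 0.1, adjusted p = 0.15). Without LC replicate 1 it was 0.36 (exact permutation p = 0.2). H2-DMa to H2-DMb1 plus H2-DMb2 was 0.809, 0.754 and 0.800 against 0.983, 1.08 and 0.936, a log2 difference of 0.34 without overlap (exact permutation p = 0.1, adjusted p = 0.15), and of 0.36 without LC replicate 1 (exact permutation p = 0.1). H2-DMb2 to H2-DMb1 was 0.153, 0.596 and 0.667 against 0.0823, 0.0887 and 0.197. LC replicate 1 lay within the IP + LC range here, and the difference of -1.80 had an exact permutation p of 0.2 (adjusted p = 0.24). Without that tumor it was -2.48 (exact permutation p = 0.1).

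**Figure D3:**
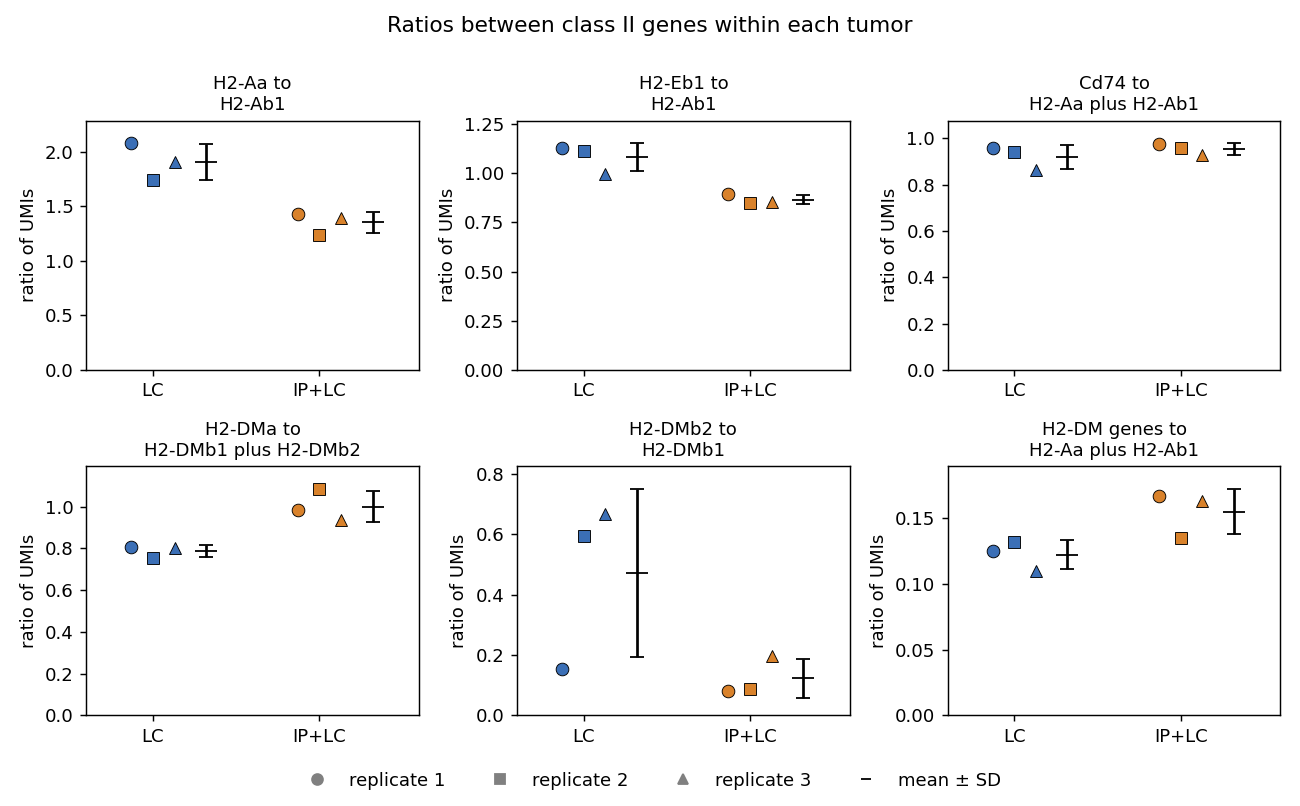
Ratios of UMIs between class II genes within each tumor, on linear axes that start at 0, with 3 LC tumors in blue, 3 IP + LC tumors in orange, a marker shape per replicate number and the mean ± SD in black. H2-Aa and H2-Eb1 are lower against H2-Ab1 in all 3 IP + LC tumors, Cd74 stays near 0.9 to 1 of the I-A chains, and H2-DMb2 to H2-DMb1 in LC replicate 1 lies among the IP + LC tumors.

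The genes did not all vary together over the 6 tumors. On log2(CPM + 4), H2-Aa, H2-Ab1, H2-Eb1 and Cd74 had pairwise Pearson correlations of 0.8975 to 0.9875, and H2-DMa and H2-DMb1 one of 0.9675. Ciita correlated with those 6 genes at 0.4334 to 0.7685, and H2-DMb2 correlated negatively with every other member, at -0.4548 to -0.0437. These values describe 6 tumors that fall into 2 groups and share their libraries' depth, and no test was made of them. Ciita in the LC group was lowest in replicate 1, where the other genes but H2-DMb2 were highest.

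Beside the members, Dtx4, Scimp, Tgm2, Ltbr and Rps6kc1 had the patterns most like the mean of the 8 genes, with Pearson correlations of 0.986, 0.980, 0.979, 0.9751 and 0.974 over the 6 tumors. Scimp, a membrane adaptor of antigen-presenting cells, was measured at 12.1, 10.2 and 9.32 CPM in the LC tumors and at 16.0, 36.8 and 29.8 CPM in the IP + LC tumors (log2 fold change 1.42, adjusted p = 0.0228). The other 4 did not pass the limit, and Tgm2, a transglutaminase, had means of 274 ± 10.7 and 373 ± 55.5 CPM (adjusted p = 0.124). The order depended on depth. With every library thinned to the size of the smallest, Tgm2 took rank 4, Ltbr took rank 38, Dtx4 rank 70 and Rps6kc1 rank 4511, and Scimp was not tested.

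On chromosome 17 the 6 members from H2-DMa to H2-Eb1 spanned 197.1 kb with 11 other annotated genes lying wholly within it, of which 5 were tested. Psmb8 and Psmb9 (immunoproteasome subunits) and Tap1 and Tap2 (the peptide transporter of MHC class I) lie between H2-DMb1 and H2-Ob, and all 4 rose. Psmb8 was measured at 279, 175 and 172 CPM in the LC tumors and at 582, 706 and 653 CPM in the IP + LC tumors (log2 fold change 1.64, adjusted p = 0.00236). The log2 fold changes were 1.72 for Tap1, 1.40 for Psmb9 and 1.36 for Tap2, and IP + LC and LC tumors did not overlap for any of the 4. Psmb9 and Tap1 overlap at their ends on opposite strands. H2-Ob, the fifth, fell between Tap2 and H2-Ab1, so that neighbours differed in direction.

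**Figure D4:**
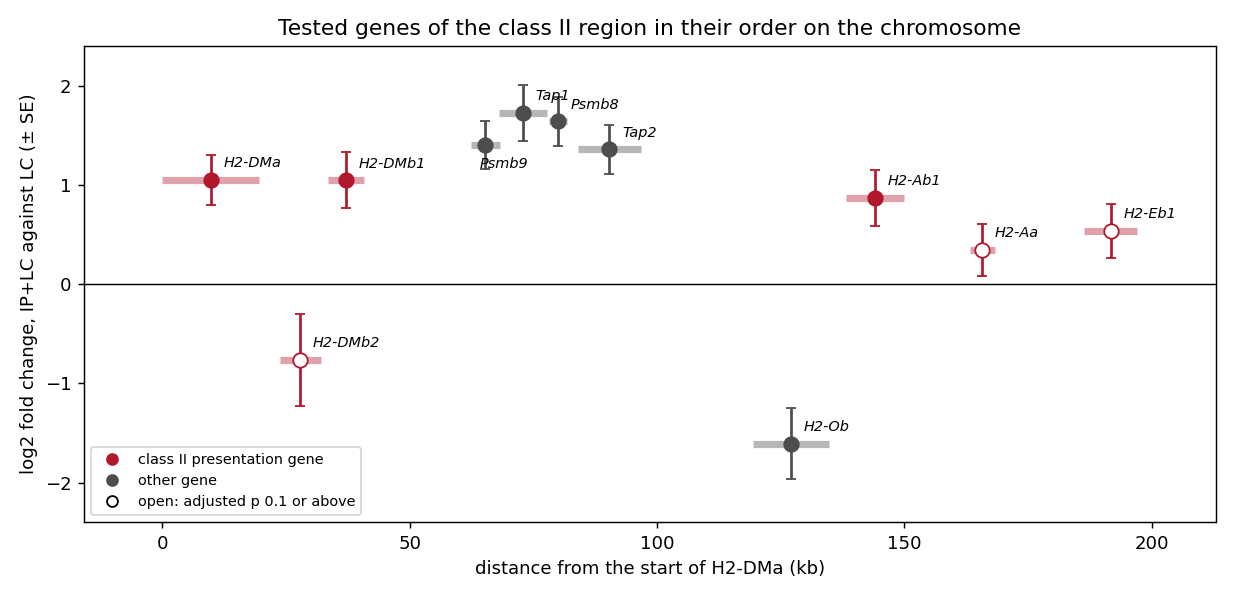
Log2 fold change (± SE, edgeR) of the tested genes of the chromosome 17 stretch, plotted by distance in kb from the start of H2-DMa; horizontal bars give each gene's length, red marks the 6 members, grey the other genes, and open points an adjusted p of 0.1 or above. Tap1, Tap2, Psmb8 and Psmb9 lie at 1.36 to 1.72, above all class II genes of the stretch, and H2-DMb2 and H2-Ob lie below 0.

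Interferon-gamma acts on Ciita in part through IRF1. The list of this input also held factors of myeloid and B cells. Of its 13 tested genes 4 were higher, beside 16.8% of all tested genes, and none was lower (median log2 fold change 0.42). Irf1 rose from 109.8 ± 51.8 to 387 ± 41.6 CPM (log2 fold change 1.84, adjusted p = 0.00511), and Irf8, a factor of myeloid and B cells, from 70.8 ± 9.16 to 176 ± 35.9 CPM (1.30, adjusted p = 0.0047). Socs1, which dampens this signal and is 1 of the 4, had 9, 7 and 8 UMIs in the LC tumors and 160, 232 and 197 UMIs in the IP + LC tumors. It passed the filter on low counts only through the IP + LC tumors, where it was higher, so its call gives no support. Ifng, named after its values were seen, had no UMI in the LC tumors and 8, 14 and 11 UMIs in the IP + LC tumors, at least 2.18-fold higher than a floor of 3 UMIs in each LC library, and was too low to be tested. Irf1 and Irf8 were called in 16 of 16 alternatives.

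The factors that hold CIITA at its promoters were not called. None of 7 tested genes of RFX, NF-Y, CREB1 and the coactivators CREBBP and EP300 was higher or lower (median log2 fold change 0.46), and Rfx5 and Rfxank were too low to be tested. Rfxap, an RFX subunit, had means of 21.7 ± 8.49 and 31.1 ± 2.77 CPM (adjusted p = 0.155), and Nfya, an NF-Y subunit, 21.8 ± 2.84 and 30.2 ± 2.95 CPM (adjusted p = 0.148).

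Of 15 endosomal genes that process antigen or handle class II molecules, 5 were higher and 2 were lower (median log2 fold change 0.42). By comparison, 16.8% of all tested genes were higher and 19.6% were lower. Ctss, cathepsin S, which trims the invariant chain, was measured at 997, 458 and 484 CPM in the LC tumors and at 844, 1447 and 1265 CPM in the IP + LC tumors (0.88, adjusted p = 0.0899), and overlapped through LC replicate 1. Ctsz rose from 227 ± 108 to 477 ± 54.3 CPM (1.08, adjusted p = 0.0322), and Ifi30, a thiol reductase of endosomes, from 229 ± 104 to 429.9 ± 53.2 CPM (0.92, adjusted p = 0.0524). Ctsb and Lgmn, further endosomal proteases, were also higher (0.71 and 0.88), while the tetraspanins Cd9 and Cd82 were lower (-0.86 and -0.63). Ctss was called in 8, Ctsb and Lgmn in 9, and Ifi30 in 10 of 16 alternatives, whereas Ctsz was called in 14. Cd9 was called in 16 and Cd82 in 7.

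MHC class I presentation was higher in 11 of 13 tested genes, beside 16.8% of all tested genes, with a median log2 fold change of 1.235. Nlrc5, the class I counterpart of Ciita, rose from 14.9 ± 2.76 to 82.2 ± 11.9 CPM (2.49, SE 0.24, adjusted p = 0.000821). B2m, the light chain, and H2-K1, a heavy chain of a family of close copies among which reads may be split, were the genes that did not pass, at 0.15 (adjusted p = 0.707) and 0.55 (adjusted p = 0.119). Of 5 tested genes for costimulation and receptors between antigen-presenting cells and CD4 T cells, 1 was higher, beside 16.8% of all tested genes. Cd4, Ctla4, Lag3, Cd40lg and Cd80 were too low to be tested. Cd86, a costimulatory ligand of antigen-presenting cells and the gene called, had 14, 17 and 9 UMIs in the LC tumors and 47, 75 and 56 UMIs in the IP + LC tumors. Only the IP + LC tumors all reached the level of the filter on low counts, so its call gives no support. The 10 T cell markers included no call in either direction, with Cd3e and Cd8a listed at 0 in LC replicate 1.

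**Figure D5:**
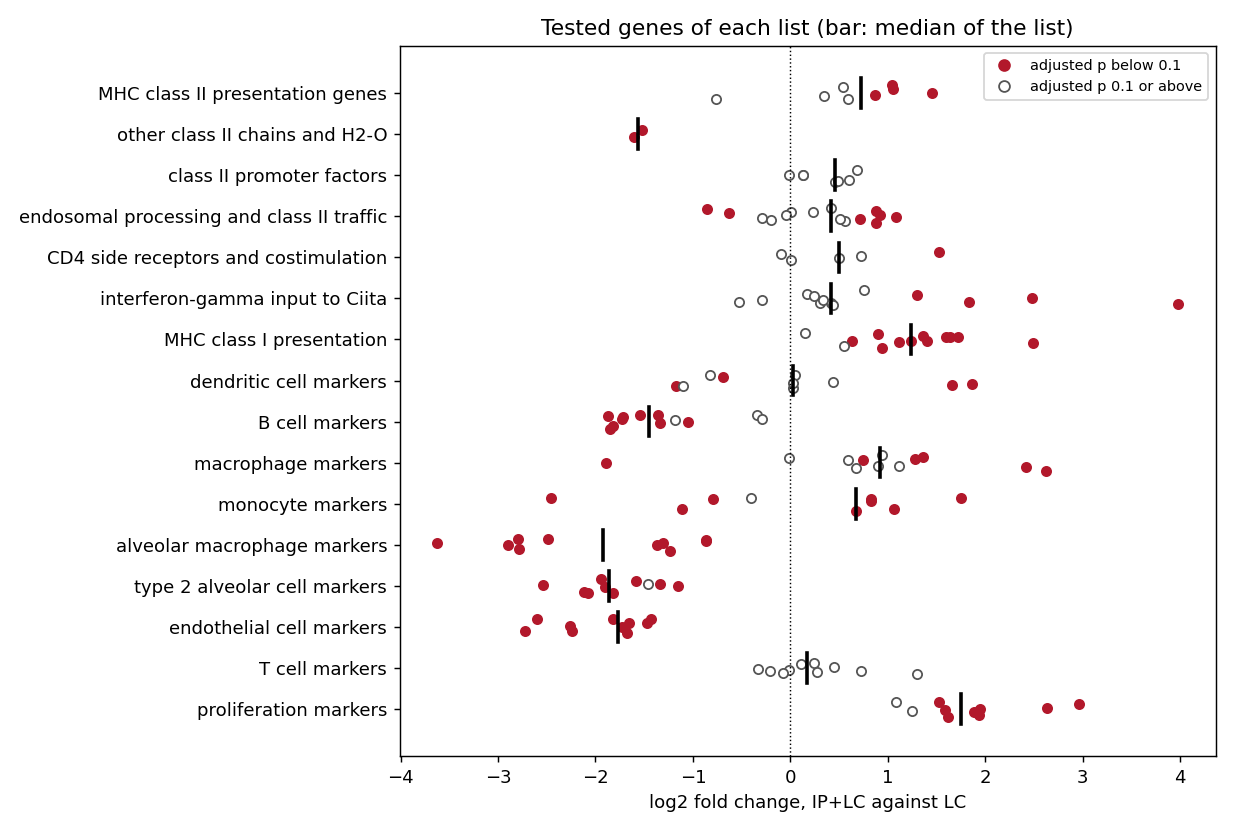
Log2 fold change of every tested gene (points) of the 8 members, 6 related lists and 9 marker lists, with the median of each list as a black bar; filled red points have an adjusted p below 0.1 and open points one of 0.1 or above, and the vertical spread within a list is only for display. The 8 members have a median of 0.73, MHC class I presentation 1.235 and B cell markers -1.45.

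Markers of the cells that could carry class II molecules did not move in 1 direction. For scale, 16.8% of all tested genes were higher and 19.6% were lower. Of 12 macrophage markers, 5 were higher and 1 (Cd163), which passed the filter on low counts only through the LC tumors, was lower (median 0.92), with a summed level of 673.7 to 2535 CPM over the LC tumors and 2528 to 3206 CPM over the IP + LC tumors. Fcgr1, a high-affinity Fc receptor, rose from 23.4 ± 12.6 to 117 ± 16.4 CPM (2.42, adjusted p = 0.00162). The number of higher macrophage markers was 10 without LC replicate 1 and 2 without any other single tumor. Of 10 tested dendritic cell markers 2 were higher and 2 were lower (median 0.03), near the shares of all tested genes. Their summed level was 194.1 to 311.7 CPM and 224.8 to 329.8 CPM in the LC and IP + LC groups. Fscn1, of mature dendritic cells and many tumor cells, was higher (1.86, adjusted p = 0.0173), and Ccr7, a homing receptor of mature dendritic cells and lymphocytes, was lower (-0.70, adjusted p = 0.0739). Ccr7 kept its call in 7 of 16 alternatives and Fscn1 in 16 of 16. The other higher marker, Batf3, had 8, 6 and 2 UMIs in the LC tumors and 23, 29 and 26 UMIs in the IP + LC tumors and passed the filter only through the latter, so its call gives no support. Of the 2 lower markers, Cd209a likewise passed only through the LC tumors, which leaves Fscn1 and Ccr7.

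Of the type 2 alveolar cell markers, whose cells carry class II molecules in mouse lung, 9 of 10 fell (median -1.865), and all 10 endothelial markers fell (median -1.77), beside 19.6% of all tested genes. All 10 alveolar macrophage markers were called lower (median -1.925), but 4 of them (Krt79, Pparg, Siglecf and Marco) passed the filter on low counts only through the LC tumors and give no support, which leaves 6. Of 9 monocyte markers 5 were higher, beside 16.8% of all tested genes, and 3 were lower (median 0.67). Their summed level was 14300 to 15710 CPM over the LC tumors and 7212 to 8843 CPM over the IP + LC tumors. Proliferation markers were higher in 8 of 10, and none was lower (median 1.75). Of the 8, 4 (Aurkb, Aurka, Bub1 and Plk1) passed the filter only through the IP + LC tumors. No marker of any list was at 0 in all 6 tumors. The part of these cells and of the LLC cells themselves in the levels of the 8 class II genes was not tested.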

How the data were processed

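RNA from 3 LC and 3 IP + LC tumors was measured by bulk RNA barcoding and sequencing. The authors extracted 10-base UMIs with UMI-tools 1.1.1, trimmed reads with Trim Galore 0.6.7, used HISAT2 2.2.1 for alignment (GRCm38) and featureCounts 2.0.1 for gene assignment; the annotation release and the use of strand are not given in the sources used here. The deposited values are raw counts of distinct UMIs for each gene and tumor.

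From these counts, log2 fold changes were fitted by edgeR 4.0.16 under R 4.3.3 (filterByExpr with a minimum count of 10 and total of 15, TMM factors of 0.905 to 1.07, quasi-likelihood test without a block, Benjamini-Hochberg adjustment over 11240 genes, limit 0.1). A called gene passed the filter through 1 group only where fewer than 3 tumors of the lower group reached 7.41 CPM of the full library. Other CPM values are after TMM scaling. The SE is the log2 fold change divided by the root of the F statistic. A count of 3 UMIs, the floor used, was 1.75 to 5.17 CPM. Positions came from GENCODE M21, and near copies were sought with blastn 2.17.0+ in its transcripts. Alternatives were other scalings (DESeq2 1.42.0 size factors, upper quartile, library size), other filters, DESeq2's Wald test, voom with quality weights in limma 3.58.1, a replicate block, a limit of 0.05, thinning to the smallest library and leaving out each tumor. The fit was tested on simulated data.

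The 8 genes and all lists were chosen with earlier results of these data known. Genes outside the 8 were named by rule: of each list the 3 with the highest mean CPM and the 2 with the smallest p, the 5 genes most like the members, and the genes between them on chromosome 17. Irf8, Ifi30, Ctsb, Lgmn, Cd82, Bank1, Ms4a1 and Ifng were added after their values were seen. So were the genes named only as too low to be tested and the markers named only as passing the filter through 1 group. Some genes that this rule selects are not reported here.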

Additional observations from a re-analysis of the deposited data

How the results depend on the processing

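Ciita and H2-DMa kept their direction and call in all 16 alternatives, H2-Ab1 in 12 and H2-DMb1 in 16 of 17. Leaving out 1 tumor at a time gave log2 fold changes of 0.19 to 0.59 for H2-Aa, 0.63 to 1.14 for H2-Ab1, 0.315 to 0.79 for H2-Eb1, 0.39 to 0.83 for Cd74, 0.84 to 1.31 for H2-DMb1 and -1.34 to -0.41 for H2-DMb2. It gave 2 to 7 members called higher and 0 to 1 lower, 13 to 34 higher and 2 to 6 lower genes of the related lists (21 and 4 in all tumors), 7 to 29 higher marker genes (20), and 897 to 3324 higher and 1368 to 3367 lower of all genes. Calls were gained by H2-Eb1 (0.645, adjusted p = 0.0997) and Cd74 (0.70, adjusted p = 0.0663) without a filter on low counts, by Cd74 with library size only (0.74), and in limma voom by H2-Eb1 (0.51), Cd74 (0.625) and H2-DMb2 (-1.175), which made 1 member lower and 3180 of all genes higher. With thinned libraries 1014 genes were higher and 1338 lower, with 11 higher marker genes and 2 lower genes of the related lists, and at a limit of 0.05 there were 12 higher marker genes. Counted together with H2-DMb1, a choice made after seeing the data, H2-DMb2 turned to 0.70. Rps6kc1 turned to -0.045 with thinned libraries. The cause was not tested.

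The sources do not say that the replicate numbers pair the tumors. The correlations of same-numbered deviations were 0.03, -0.12 and 0.11, and with 3 tumors per group they cannot decide this. A fit with the replicate number as a block left the call of 8 of 8 members as it was, with 1599 higher and 1811 lower genes in all. H2-DMb2 could not be tested with 10 UMIs required in every library. At 9 to 53 UMIs its counts limit what can be said of it.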
